A study of Canis lupus familiaris with 12 samples.

Results

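The genes beside the major histocompatibility complex (MHC) class II genes were followed in Mi/CMM1, an established line grown from an oral melanoma of a dog, after exposure to 3 nonsteroidal anti-inflammatory drugs. The group held 10 genes: VPS52, BRD2, RPS18, WDR46, RGL2, TAPBP, DAXX, RING1, RXRB and B3GALT4. A probe belonged to a gene when the transcript accession it carries is a dog RefSeq transcript of that gene. On this rule 6 of the 10 genes had a probe, with 13 probes of the 43603 on the array: 4 for VPS52, 3 for BRD2, 2 each for TAPBP and RING1, and 1 each for RPS18 and B3GALT4. WDR46, RGL2, DAXX and RXRB were not analysed here. The group was chosen by measured values: VPS52 with robenacoxib and BRD2 with piroxicam had stood out in these same arrays, so those contrasts are described below without a test.

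RNA was measured on one-colour Agilent arrays, 3 for each of 4 groups (12 in all): control cells labelled as given no treatment, with no vehicle named, and cells given piroxicam, carprofen or robenacoxib. The submitters call the 3 replicates of a group biological. All groups are the same cell line, and each drug was given at what the submitters state is its half-maximal inhibitory concentration. The labels conflict: on the samples, the dose is 116 µM for piroxicam and 779 µM for carprofen over 6 h, whereas the treatment protocol swaps these doses and states 24 h. Both sources put robenacoxib at 156 µM. The doses differ in either version, so the drugs are shown side by side and were not tested against each other. The 3 comparisons share the control arrays. Tests of VPS52 and BRD2 with the other drugs are therefore not independent of the contrasts that chose these genes.

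The extended class II region is a stretch of mammalian genome that holds, next to the antigen-presenting class II genes, many genes with unrelated everyday roles. VPS52 is a subunit of the tethering complexes that catch vesicles returning from endosomes. BRD2 is a BET protein, which reads acetylated histones through its bromodomains. RING1 is an E3 ligase of Polycomb repressive complex 1, TAPBP (tapasin) loads peptides onto MHC class I, RPS18 is a protein of the small ribosomal subunit, and B3GALT4 is a galactosyltransferase of ganglioside synthesis. In the dog RefSeq gene table of assembly UU_Cfam_GSD_1.0, RING1, VPS52, RPS18 and B3GALT4 follow each other in that order. BRD2 lies at one end of the stretch and DAXX at the other, with TAPBP near DAXX. That stretch counts 16 protein-coding genes, 8 of which had a probe here.

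Levels are log2 of the background-subtracted signal relative to each array's 75th percentile, so 0 means a signal equal to that percentile. A level shows a probe's own brightness and was not compared between probes. Differences are drug minus control on the log2 scale, with the standard error (SE) from limma's model over all 12 arrays. A probe was called when limma's adjusted p, over 31996 tested probes, was below 0.05; all 13 probes were tested. The share of spots well above background was at least 66.2% on each array, and correlations between arrays of a group from 0.9973 to 0.9991. The arrays lay on 3 slides, each scanned as a unit: every control array shared the first slide with carprofen 1 alone, the second carried piroxicam 1 and 2 with the remaining carprofen arrays, and piroxicam 3 joined the robenacoxib arrays on the third. No slide held control beside piroxicam or robenacoxib, so a fit with a slide term reaches those drugs only through the carprofen and piroxicam arrays. Its carprofen difference equals that of carprofen 1 from the control arrays. The slide-term differences of all 3 drugs thus rest on that 1 array. With the slide term limma called 2.52% of tested probes higher and 2.56% lower with piroxicam (5.09% in all), 7.73% and 8.68% with carprofen (16.4%), and 1% and 0.391% with robenacoxib (1.39%). Without it, 12.1%, 13.4% and 9.6% were called higher with piroxicam, carprofen and robenacoxib.

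One VPS52 probe was lower with robenacoxib, and its other 3 probes were not. On probe A_11_P0000020651 the control arrays read -0.47, -0.37 and -0.37. The robenacoxib arrays read -0.88, -0.93 and -0.97, all below every control array. The difference was -0.53 (SE 0.04, n = 3 against 3), a signal 1.44-fold lower; since this contrast chose the gene, it is a description. Piroxicam arrays read -0.56, -0.53 and -0.57, and carprofen arrays read -0.78, -0.75 and -0.70. The order of the levels was thus control, piroxicam, carprofen, robenacoxib, with no overlap between neighbours.

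**Figure D1:**
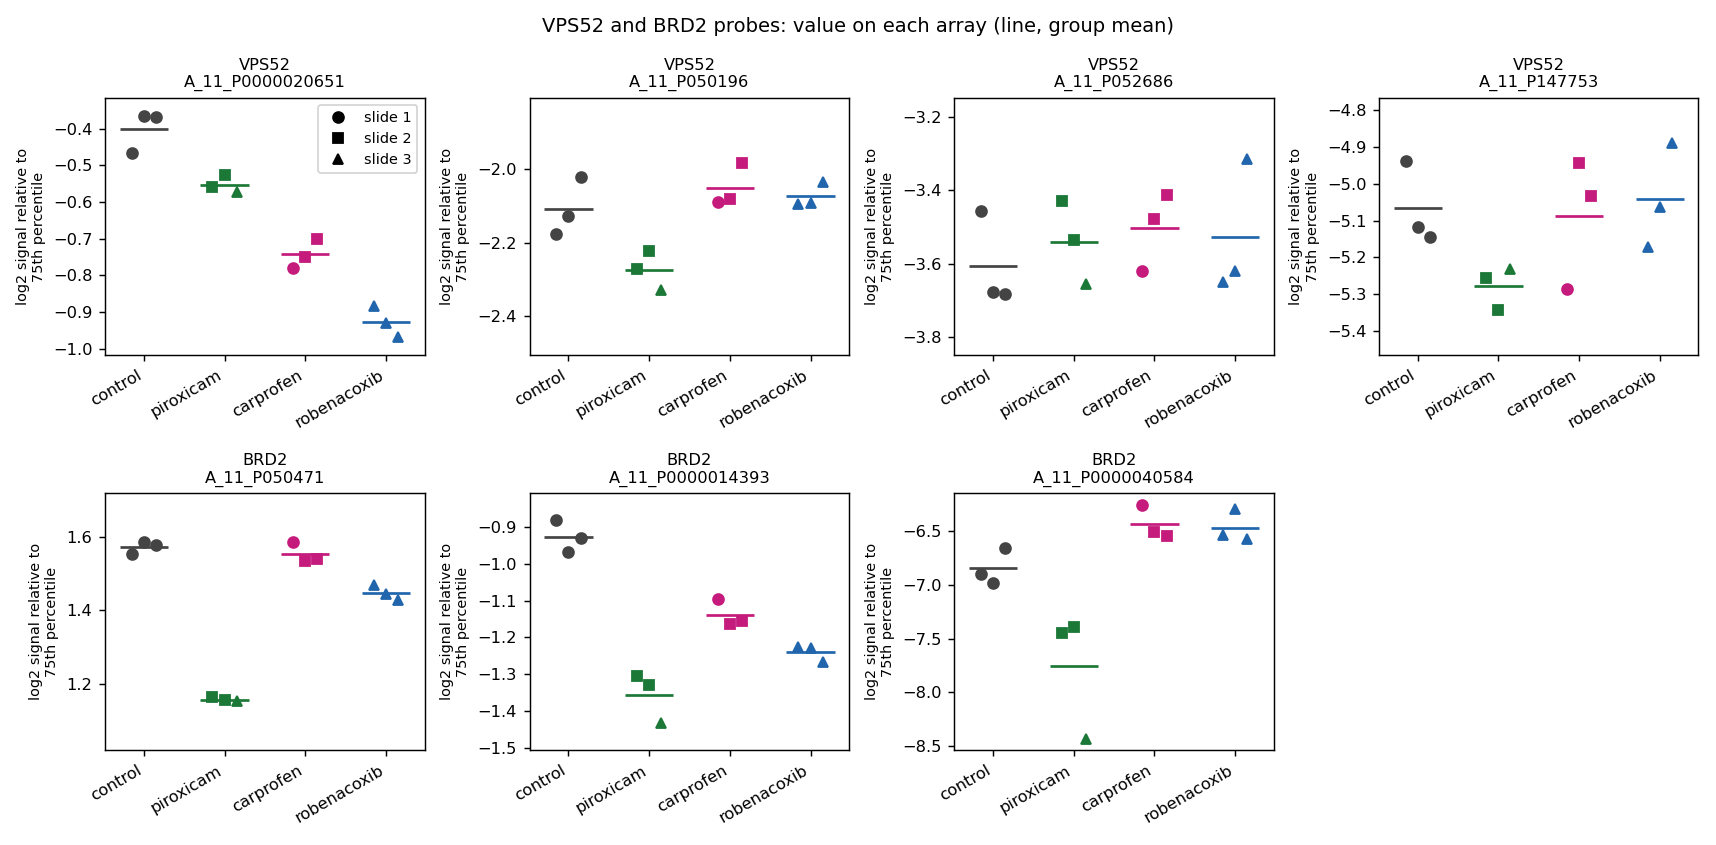
Level of each VPS52 and BRD2 probe (vertical axis, log2 signal relative to the 75th percentile) in the 4 groups. Each point is an array, coloured by group with the marker shape giving the slide, and the line is the group mean. VPS52 probe A_11_P0000020651 steps down from control (-0.47 to -0.37) to robenacoxib (-0.97 to -0.88), and BRD2 probe A_11_P050471 is lowest with piroxicam (1.15 to 1.16).

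With carprofen this VPS52 probe fell (difference -0.34, SE 0.04, limma adjusted p = 0.000177), where 19.3% of all tested probes were called lower and 32.7% in either direction. With slide as a block the difference was -0.38 (limma adjusted p = 0.00517). That value is carprofen 1 against the controls of the first slide, so it rests on 1 drug array. A fit to the first slide's arrays alone gave the same difference, and the probe was not called there. Piroxicam gave -0.15 (SE 0.04, limma adjusted p = 0.014), where 15.7% of tested probes were called lower. Both tests use the control arrays of the robenacoxib contrast that chose the gene. The piroxicam call was lost with slide as a block (-0.20, adjusted p = 0.162), without control 2 (-0.13, adjusted p = 0.0543) and without control 3 (-0.14, adjusted p = 0.0539).

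The values of this probe moved with the processing. The scanner's processed signal was 1.14 to 1.20 times its pixel median minus local background on the 4 arrays of the first slide, and 0.964 to 1.06 times on the other 8. For BRD2 probe A_11_P0000014393, described below, it was 0.997 to 1.03 on the first slide and 1.03 to 1.17 on the other slides. When the pixel medians were background-corrected with normexp instead, robenacoxib gave -0.27, carprofen -0.20 (adjusted p = 0.0517) and piroxicam 0.03. On that scale the control (-0.63 to -0.57) and piroxicam (-0.63 to -0.52) arrays overlapped, as did carprofen (-0.94 to -0.70) and robenacoxib (-0.90 to -0.83). With scaling to the array's spike-in transcripts, robenacoxib gave -0.23, carprofen 0.02 and piroxicam 0.00326. The robenacoxib difference stayed below 0 under all 26 alternatives, from -0.56 to -0.19. What part the slide has in these values was not tested.

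**Figure D2:**
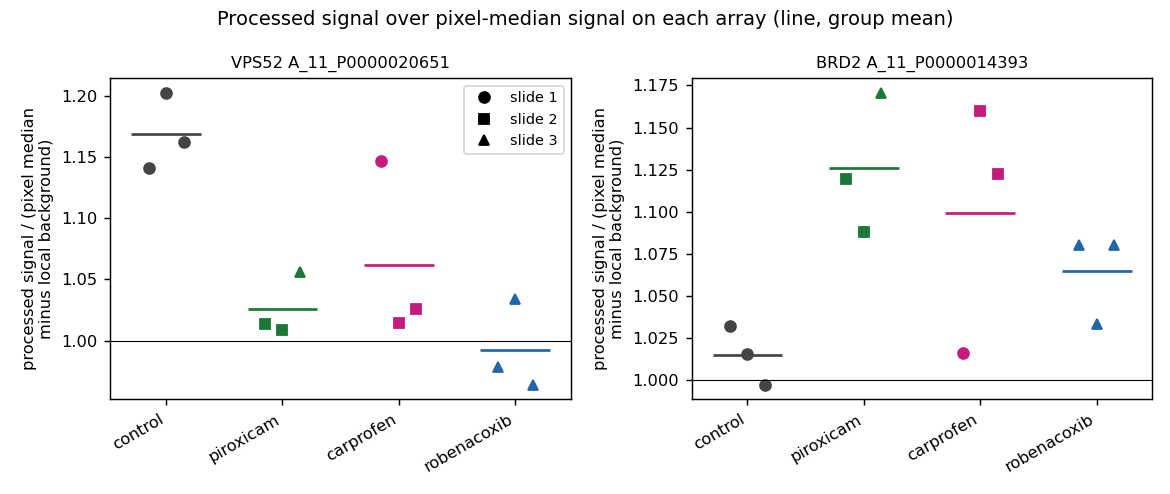
Processed signal divided by pixel median minus local background (vertical axis, a ratio) for VPS52 probe A_11_P0000020651 and BRD2 probe A_11_P0000014393. Points are arrays coloured by group, with the marker shape giving the slide, and lines are group means. The VPS52 ratio is 1.14 to 1.20 on the first slide and 0.964 to 1.06 elsewhere. The ratio of this BRD2 probe is 0.997 to 1.03 on the first slide and 1.03 to 1.17 elsewhere.

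The other VPS52 probes read differently without a slide term. On A_11_P050196 the control arrays read -2.18, -2.13 and -2.02 and the robenacoxib arrays -2.10, -2.09 and -2.03, which overlap. The robenacoxib differences of A_11_P050196, A_11_P052686 and A_11_P147753 were 0.03 (SE 0.05), 0.08 (SE 0.11) and 0.03 (SE 0.10). With slide as a block they were 0.06 (SE 0.11), 0.08 (SE 0.24) and -0.34 (SE 0.20). Over the 12 arrays the correlation of A_11_P0000020651 with these 3 was -0.35, -0.31 and -0.29, given as a description of arrays that share slides. The position of each probe in the transcript was not analysed here.

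With carprofen none of these 3 was called (limma): the differences were 0.06 (95% interval -0.05 to 0.16), 0.10 (-0.14 to 0.34) and -0.02 (-0.25 to 0.20). With piroxicam A_11_P050196 was called lower, at -2.27, -2.22 and -2.33 (difference -0.17, SE 0.05, limma adjusted p = 0.0295). That call was lost under the slide block (-0.19, adjusted p = 0.258) and under spike-in scaling (-0.011, adjusted p = 0.91). It was also lost without the filter on dim probes (adjusted p = 0.053), with the control and piroxicam arrays alone (adjusted p = 0.0732), and without control 2, control 3, piroxicam 1 or piroxicam 3 (adjusted p = 0.0611, 0.0972, 0.0716 and 0.0967). The other 2 probes gave 0.07 (adjusted p = 0.681) and -0.21 (adjusted p = 0.15) with piroxicam by limma.

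BRD2 was lower with piroxicam on both of its probes that were well above background on every array. Probe A_11_P050471, read as the mean of 5 spots per array, gave 1.55, 1.59 and 1.58 in control and 1.16, 1.16 and 1.15 with piroxicam. The piroxicam arrays lie together below all other arrays, and the difference was -0.42 (SE 0.02), a signal 1.33-fold lower. Probe A_11_P0000014393 gave -0.88, -0.97 and -0.93 in control and -1.31, -1.33 and -1.43 with piroxicam, a difference of -0.43 (SE 0.04). As this contrast chose the gene, these values too are a description. With slide as a block the differences were -0.36 (SE 0.04) and -0.33 (SE 0.05). Over the 26 alternatives they ran from -0.43 to -0.19 and from -0.58 to -0.16, with the values nearest 0 under spike-in scaling with slide as a block.

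With robenacoxib both probes were called lower. That contrast did not choose the gene, but it uses the same control arrays as the piroxicam contrast that did. A_11_P050471 read 1.47, 1.44 and 1.43, below every control array, a difference of -0.13 (SE 0.02, limma adjusted p = 0.00519). A_11_P0000014393 read -1.23, -1.23 and -1.27, a difference of -0.32 (SE 0.04, limma adjusted p = 0.000687); 12.6% of tested probes were called lower with robenacoxib. Both calls were lost with slide as a block, at -0.07 (adjusted p = 0.586) and -0.13 (adjusted p = 0.395). With spike-in scaling the first turned to 0.17 (adjusted p = 0.00242) and the second was -0.02 (adjusted p = 0.755).

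With carprofen the BRD2 probes differed from each other. A_11_P050471 read 1.59, 1.53 and 1.54, which overlaps control, with a difference of -0.02 (95% interval -0.07 to 0.03, limma adjusted p = 0.59). A_11_P0000014393 read -1.10, -1.16 and -1.16, below every control array, with a difference of -0.21 (SE 0.04, limma adjusted p = 0.00319) that the slide block took to -0.17 (adjusted p = 0.0319). The slide-block value is carprofen 1 against the control arrays, so it rests on 1 drug array. In a fit to the first slide's arrays alone the difference was the same and the probe was not called. Spike-in scaling turned the difference to 0.15 (limma adjusted p = 0.0286). For the levels of A_11_P050471 the order was control and carprofen, which overlapped, then robenacoxib, then piroxicam.

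The third BRD2 probe, A_11_P0000040584, was dim. It was well above background on 8 of the 12 arrays, 2 of them control and none of them piroxicam, and entered the test only through the carprofen and robenacoxib groups. Its levels were -6.90, -6.98 and -6.66 in control, -7.45, -7.40 and -8.43 with piroxicam, -6.25, -6.51 and -6.54 with carprofen, and -6.54, -6.29 and -6.57 with robenacoxib. The bound on its signal with piroxicam lay above the control mean, so no fold is given. Since the filter let it in through groups where it was bright, no test of it is read.

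**Figure D3:**
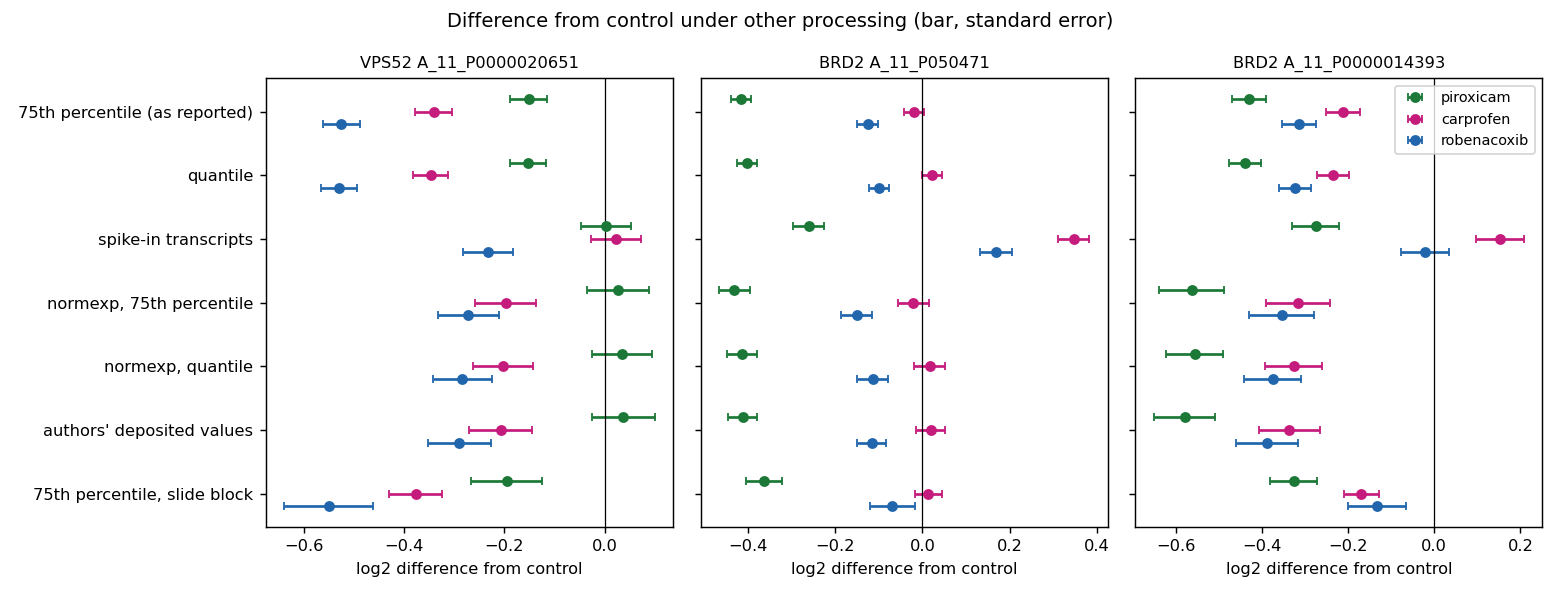
Difference from control (horizontal axis, log2; bar, standard error) of 1 VPS52 and 2 BRD2 probes, coloured by drug, under other ways of processing the same arrays. Robenacoxib on VPS52 probe A_11_P0000020651 runs from -0.53 to -0.27 with normexp and -0.23 with spike-in scaling, and piroxicam on BRD2 probe A_11_P050471 stays below 0.

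None of the 6 probes of the other 4 genes was called by limma with any drug (0 of 6 each time), against 27.8%, 32.7% and 22.2% of all tested probes with piroxicam, carprofen and robenacoxib. At an unadjusted p below 0.05 there were 3, 2 and 2, beside 39.9%, 42.5% and 34.8% of all tested probes. Groups did not overlap for 4, 2 and 4 of the 6, where 47.7%, 47% and 41.5% of all probes did not. The 6 had median differences of 0.02, -0.06 and -0.07 for the same 3 drugs, beside -0.02, -0.02 and -0.03 over all tested probes. These counts rest on the scaling. Spike-in scaling moved every difference upward by 0.15, 0.37 and 0.29 for the 3 drugs in the same order. With it 4, 5 and 4 of the 6 were called, beside 38.5%, 77.0% and 66.7% of all tested probes. That shift was set from 8 spike-in probes well above background on every array, and its size depends on which spike-in probes are used.

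RING1, which precedes VPS52 in the gene order, read higher with piroxicam on both probes without passing the test. A_11_P0000049 gave 1.22, 1.16 and 1.18 in control, 1.27, 1.32 and 1.31 with piroxicam, 1.28, 1.14 and 1.27 with carprofen, and 1.25, 1.33 and 1.38 with robenacoxib. All piroxicam and robenacoxib arrays lie above all control arrays, with differences of 0.11 (SE 0.04, limma adjusted p = 0.093) and 0.14 (SE 0.04, limma adjusted p = 0.0548). A_11_P0000026331 gave 0.74, 0.74 and 0.81 in control and 0.88, 0.85 and 0.89 with piroxicam, a difference of 0.11 (SE 0.04, limma adjusted p = 0.0658). With robenacoxib it gave 0.77, 0.76 and 0.70, which overlaps control, a difference of -0.02 (95% interval -0.11 to 0.07), so the probes part there.

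TAPBP gave its lower readings with carprofen and robenacoxib. A_11_P051311, the mean of 4 or 5 spots per array, read 0.34, 0.33 and 0.35 in control, 0.27, 0.32 and 0.24 with carprofen, and 0.28, 0.28 and 0.26 with robenacoxib. Both drug groups lie below control, with differences of -0.06 (SE 0.02, limma adjusted p = 0.0758) and -0.07 (SE 0.02, limma adjusted p = 0.0694). A_11_P052691 read 1.05, 1.08 and 1.0 in control and 0.91, 0.92 and 0.94 with carprofen, a difference of -0.12 (SE 0.04, limma adjusted p = 0.0623). With piroxicam its arrays (1.16, 1.01 and 1.16) overlapped control.

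B3GALT4 and RPS18 follow VPS52 in the gene order. B3GALT4 read -3.54, -3.50 and -3.56 in control and -3.89, -3.71 and -4.07 with piroxicam, a difference of -0.35 (SE 0.12, limma adjusted p = 0.055). All piroxicam arrays lie below control, while the carprofen (-3.79 to -3.53) and robenacoxib (-3.92 to -3.52) arrays overlap it. RPS18 read 6.66, 6.68 and 6.66 in control and 6.51, 6.49 and 6.47 with piroxicam, all below control. The difference was -0.18 (SE 0.09, limma adjusted p = 0.193). The carprofen arrays of RPS18 spread from 6.39 to 6.86, the widest range of the 4 groups, and enter that SE. The piroxicam difference ran from -0.19 to 0.38 over 26 alternatives and was called in 2 of them. These were without carprofen 1 (limma adjusted p = 0.0247) and with the control and piroxicam arrays alone (limma adjusted p = 0.00761). Ribosomal protein genes have many near-identical copies in mammalian genomes, so the RPS18 signal may include them.

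**Figure D4:**
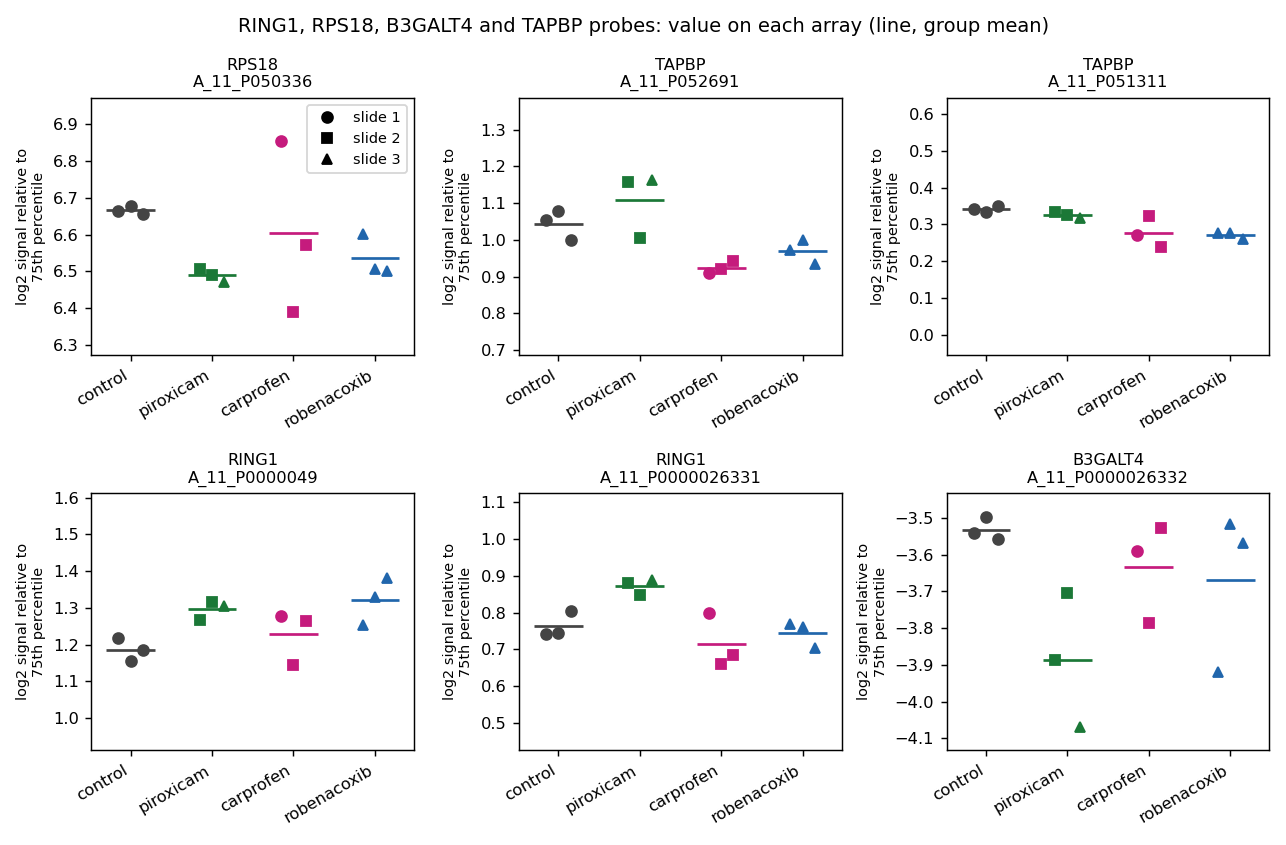
Level of each RPS18, TAPBP, RING1 and B3GALT4 probe (vertical axis, log2 signal relative to the 75th percentile) by group. Points are arrays coloured by group, with the marker shape giving the slide, and lines are group means. RING1 probe A_11_P0000049 reads 1.27 to 1.32 with piroxicam against 1.16 to 1.22 in control, and RPS18 spreads widest with carprofen (6.39 to 6.86).

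**Figure D5:**
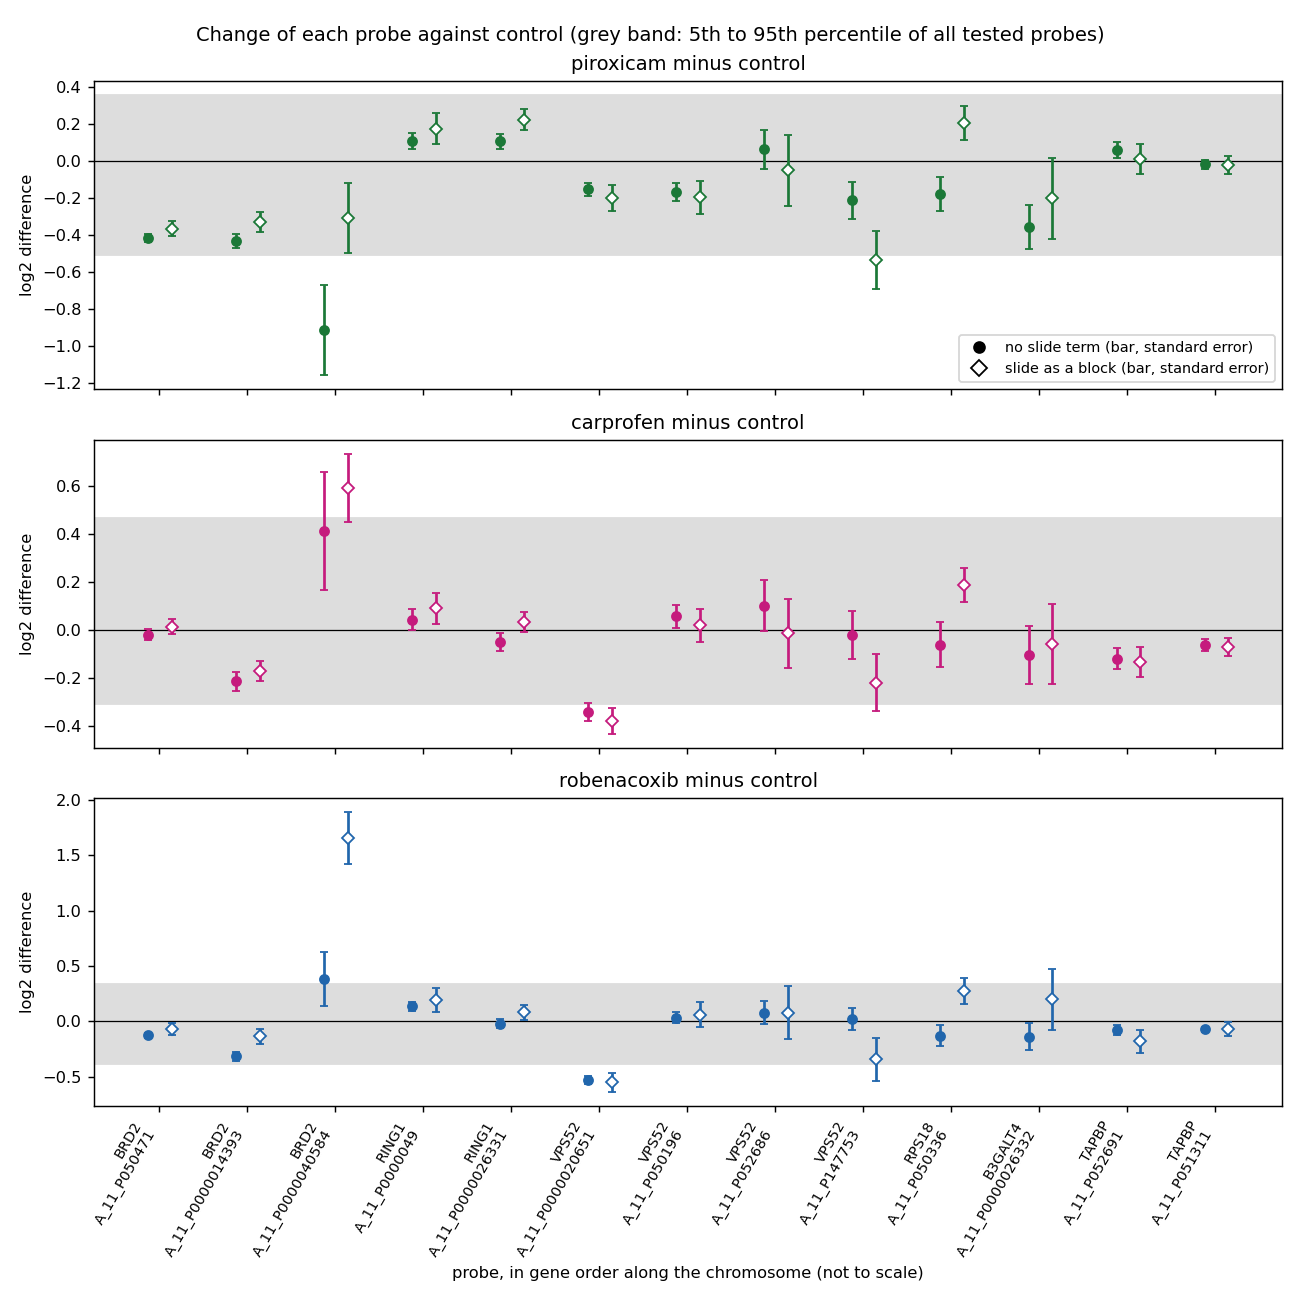
Difference from control (vertical axis, log2; bar, standard error) of the 13 probes in gene order, a panel for each drug, without (filled) and with (open) slide as a block; the grey band spans the 5th to 95th percentile of all tested probes. VPS52 with robenacoxib and BRD2 with piroxicam chose the group, so where they lie against the band is a description. The RING1 probes read 0.14 and -0.02 and RPS18 -0.13 with robenacoxib without the block.

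Other genes of the class II and extended class II region were listed by name: 11 of 29 had a probe and 10 were tested. On each gene's probe of highest mean signal, 2 fell with carprofen and 2 with robenacoxib, where 19.3% and 12.6% of all tested probes were called lower, none rose (limma), and no call was left with slide as a block. PSMB9, a subunit of the immunoproteasome, changed by -0.16 with carprofen (SE 0.03, limma adjusted p = 0.00264) and -0.21 with robenacoxib (SE 0.03, limma adjusted p = 0.001). DLA-DMA, which helps load class II molecules, changed by -0.33 with robenacoxib (SE 0.05, limma adjusted p = 0.00261), and the prefoldin subunit PFDN6, which neighbours WDR46, by -0.19 with carprofen (SE 0.04, limma adjusted p = 0.00996). A second PSMB9 probe gave -0.05 with carprofen (limma adjusted p = 0.284) and -0.16 with robenacoxib (limma adjusted p = 0.0102). With piroxicam the call was that of the class II gene DLA-DQB1, whose dim probe was well above background on 6 of the 12 arrays and brightest in control, so nothing is read from it. The zinc transporter gene SLC39A7 was not called on its probe of highest mean signal, but probe A_11_P051126 gave -0.31 with piroxicam (limma adjusted p = 0.00349; adjusted p = 0.284 with the slide block) and -0.25 with robenacoxib (limma adjusted p = 0.0124; adjusted p = 0.525 with the slide block). With spike-in scaling the differences of PSMB9 were 0.21 and 0.08, that of PFDN6 was 0.18 and that of DLA-DMA was -0.04. The median of the 10 genes was -0.07, -0.13 and -0.16 for the 3 drugs in the same order.

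Few partners of the 10 genes had a probe. Of the peptide-loading genes that work beside TAPBP, 4 of 13 were tested. Counting each gene by its probe of highest mean signal, 1 fell with each drug and none rose (limma). Of all tested probes, 15.7%, 19.3% and 12.6% were called lower with piroxicam, carprofen and robenacoxib. No call was left under the slide block. The gene that fell was the class I gene DLA-64, at -0.18, -0.20 and -0.19 with piroxicam, carprofen and robenacoxib on probe A_11_P150118. Its other 2 probes were called with carprofen alone (-0.12 and -0.11; limma). A second probe of the chaperone gene CANX was called higher with piroxicam (0.13, limma adjusted p = 0.0163) and lower with carprofen (-0.10, limma adjusted p = 0.0423). The class I genes are alike enough that a probe may read several. With spike-in scaling the values of A_11_P150118 were -0.02, 0.16 and 0.11. Of the nuclear receptors that pair with RXRB, 2 of 14 were tested, and both rose with piroxicam, where 12.1% of tested probes were called higher: PPARD by 0.30 (SE 0.04, limma adjusted p = 0.000548) and RARA by 0.31 (SE 0.07, limma adjusted p = 0.0123). Under the slide block PPARD gave 0.33 (adjusted p = 0.0368) and RARA 0.38 (adjusted p = 0.116). PPARD fell with carprofen (-0.17, limma adjusted p = 0.00823). That call was lost with the slide block (-0.13, adjusted p = 0.122), and the difference was 0.20 with spike-in scaling. A second PPARD probe gave -0.04 with carprofen (limma adjusted p = 0.412) and 0.33 with piroxicam (limma adjusted p = 0.000233). A second RARA probe gave -0.50 with piroxicam (SE 0.30, limma adjusted p = 0.245). Of 9 DAXX partners only MDM2 was tested, at 0.12 with robenacoxib (SE 0.03, limma adjusted p = 0.0345; adjusted p = 0.344 with the slide block). The tethering partners of VPS52, the other BET proteins, the Polycomb repressive complex 1 genes, Ral regulators beside RGL2, processome genes beside WDR46 and other galactosyltransferases were not analysed here.

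By correlation over the 12 arrays, among 541 named genes, the patterns most like VPS52 probe A_11_P0000020651 were those of CAT (r = 0.96), YBX3 (r = 0.91) and PSMB9 (r = 0.90). The most like BRD2 probe A_11_P050471 were BCL2L2 (r = 0.96), MX1 (r = 0.94) and CD163 (r = 0.93). These are descriptions over arrays that share slides and drug groups.

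Of 9 melanocyte markers 4 had a probe; MITF was well above background, while TYR, KIT and EDNRB did not pass that filter. MITF fell with carprofen on its probe of highest mean signal (-0.12, limma adjusted p = 0.00797). With the slide block that call was lost (limma adjusted p = 0.102), and with spike-in scaling the difference was 0.24. A second MITF probe gave -0.11 with carprofen (limma adjusted p = 0.0544). Of 5 fibroblast markers 3 were tested and 2 fell with each drug (limma), where 15.7%, 19.3% and 12.6% of all tested probes were called lower with piroxicam, carprofen and robenacoxib. They were COL1A2 and DCN, COL1A1 and COL1A2, and COL1A1 and DCN, each read on its probe of highest mean signal. Under the slide block the piroxicam and robenacoxib calls were lost, and so was the carprofen call of COL1A2. The carprofen differences there, which rest on 1 drug array, were -0.14 for COL1A1 and -0.13 for COL1A2. Other COL1A2 probes ran from -0.20 to -0.08 in that fit, and other COL1A1 probes from -0.29 to 0.05. The summed level of the 3 tested fibroblast markers, in multiples of the 75th percentile, was 74.0 to 76.2 in control and 68.6 to 72.1 with piroxicam. It was 64.7 to 68.4 with carprofen and 70.2 to 71.2 with robenacoxib. This sum is mostly the brightness of 1 COL1A2 probe. The control mean levels were 6.00 for COL1A2, 3.41 for COL1A1 and -5.26 for DCN. With spike-in scaling COL1A2 gave 0.06 and 0.20 with piroxicam and carprofen, COL1A1 gave 0.18 and 0.17 with carprofen and robenacoxib, and DCN gave -0.27 and -0.06 with piroxicam and robenacoxib. The part of these markers in the results above was not tested.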

How the data were processed

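The scanner files hold spot intensity, read with Feature Extraction 10.7.3.1 and background-subtracted within each array, per the file headers. The authors' deposited value table is on a log2 scale, as judged from its values, with limma 3.24.15 named in the submitters' processing notes. How it was background-corrected and centred is not given in the sources used here. Its columns all had a median of 7.67, and it served as an alternative. Precision is limited by the number of arrays, with a median SE of 0.053.

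With R 4.3.3, limma 3.58.1 and the data.table package (1.17.8), log2 processed signal minus each array's 75th percentile was fitted to all 12 arrays (8 residual degrees of freedom), without control spots or spots with an outlier flag and with spots of a probe averaged. A probe was tested when every array of some group had it well above background. Tests were two-sided with Benjamini-Hochberg adjustment. The named genes were all 10 members, each probe apart, and fixed lists of related genes. The list of ribosomal protein genes is not reported here. Members and lists were chosen with earlier results of these data known. Alternatives changed the scaling, background correction, filter, slide, replicates and values used. Normexp (offset 50) had been planned on mean signals and was run on pixel medians, the signal used here. The fit was tested on simulated data, where it recovered most large changes and missed many small ones. A criterion first set for changes of middle size was not met, and one for the largest changes replaced it afterwards. Replicate numbers do not pair the arrays: deviations of same-numbered arrays had a median correlation of -0.11 over 18 pairs.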

Additional observations from a re-analysis of the deposited data

How the results depend on the processing

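The number of called probes among the 6 of RPS18, TAPBP, RING1 and B3GALT4, 0 with each drug by limma, moved with the settings. Percentages in brackets are the share of all probes tested in that setting that were called. With piroxicam the number was 1 with quantile normalization (27.8%) and 4 with spike-in scaling (38.5%). It was 2 with normexp and quantile normalization (26.2%) and 2 with the authors' deposited values (24.9%). It was 1 among probes well above background on every array (32.5%) and 4 with the control and piroxicam arrays alone (27.0%). With carprofen it was 5 with spike-in scaling (77.0%) and 1 with the compared groups alone (26.4%). With robenacoxib it was 1 with quantile normalization (21.3%) and 4 with spike-in scaling (66.7%). It was 1 with the stricter filter (26.8%) and 1 with outlier spots kept (22.3%). Leaving out each array in turn gave 0 to 2, 0 to 1 and 0 to 2. Where the number was highest, the shares called were 24.0% and 29.5% with piroxicam, 26.1% to 32.6% with carprofen and 21.8% with robenacoxib. With the replicate number as a block the counts were 0, 0 and 0.

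Among values called in at least 1 setting compared, signs turned mostly under spike-in scaling. VPS52 probe A_11_P0000020651 with piroxicam became 0.00326 there, 0.027 with normexp and the 75th percentile, 0.035 with normexp and quantile normalization, and 0.037 with the authors' deposited values. TAPBP probe A_11_P051311 with piroxicam became 0.14. With carprofen and spike-in scaling, VPS52 probes A_11_P0000020651 and A_11_P147753 became 0.024 and 0.34, BRD2 probes A_11_P050471 and A_11_P0000014393 became 0.35 and 0.15, RPS18 0.30, TAPBP probes A_11_P052691 and A_11_P051311 0.25 and 0.30, and RING1 probe A_11_P0000026331 0.32. With robenacoxib, BRD2 probe A_11_P050471 became 0.17, the same TAPBP probes 0.22 and 0.22, and the same RING1 probe 0.27. Another 59 sign changes, 10 of them with slide as a block, were in values called in neither setting or given without a test. RPS18 with the block was 0.21, 0.19 and 0.27 with piroxicam, carprofen and robenacoxib.

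Combinations of slide as a block with spike-in scaling or with the authors' deposited values were added after seeing the data. Spike-in scaling with the block gave 1, 5 and 4 called probes with piroxicam, carprofen and robenacoxib, beside 10.8%, 64.5% and 43.1% of all tested probes. It turned carprofen differences to 0.37 and 0.19 on BRD2 probes A_11_P050471 and A_11_P0000014393, 0.55 on RPS18, 0.22 and 0.29 on TAPBP and 0.39 on RING1 probe A_11_P0000026331. It turned robenacoxib differences to 0.30 and 0.23 on those BRD2 probes, 0.64 on RPS18, 0.30 on TAPBP probe A_11_P051311 and 0.45 on that RING1 probe. The authors' deposited values with the block turned BRD2 probe A_11_P0000040584 with piroxicam to 0.38 and BRD2 probe A_11_P0000014393 with robenacoxib to 0.019 (adjusted p = 0.969). The cause was not tested. Probe A_11_P0000040584 is limited by its signal, which is near background.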
